A study of Mus musculus with 4 samples.

Results

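Cardiac macrophages were taken from a Drop-seq study of embryonic mouse hearts as the cells that held transcripts of at least 3 of 10 macrophage genes (C1qa, C1qb, C1qc, Fcer1g, Tyrobp, Pf4, Mrc1, Lyz2, Csf1r and Ctss). In Drop-seq each cell is lysed in a droplet beside a barcoded bead, and unique molecular identifiers (UMIs) then count its captured transcripts. A cell also had to hold at least 500 UMIs, at most 20% mitochondrial UMIs, and under 1% of its UMIs from the cardiomyocyte genes Tnnt2, Actc1, Myh6 and Myh7. The rule gave 452 cells, or 1.82% of the 24849 cells in the table and 2.10% of the 21495 cells that passed the UMI and mitochondrial limits. The study set 287 Lats1/2 CKO macrophages (Wt1 CreERT2/+; Lats1/2 F/F; Rosa26mTmG/+, a conditional knockout) against 165 control macrophages (Wt1 CreERT2/+; Rosa26mTmG/+), from hearts at E14.5 and E13.5 (days after conception). The recombinase CreERT2 needs tamoxifen to act and is made from the Wt1 locus, which is active in the epicardium. Both genotypes carried the Cre and the mTmG reporter, which makes membrane EGFP after recombination. Each genotype and stage had 1 library, and how many embryos went into a library was not given in these sources. The macrophages numbered 134 in Lats1/2 CKO E14.5, 98 in control E14.5, 153 in Lats1/2 CKO E13.5 and 67 in control E13.5.

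Macrophages of the embryonic heart are known to be seeded by yolk sac and fetal liver precursors, and they need signalling through the receptor CSF1R. They take up dying cells and debris, process them in lysosomes, make the C1q complement proteins, and lie along the epicardium and the growing coronary and lymphatic vessels. A resident type is commonly recognised by LYVE1, a hyaluronan receptor, together with the mannose receptor MRC1 (CD206), folate receptor FOLR2 and coagulation factor F13A1.

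The median macrophage held 1063 UMIs in Lats1/2 CKO E14.5, 839.5 in control E14.5, 2214 in Lats1/2 CKO E13.5 and 1713 in control E13.5. Summed over the macrophages of a library, this came to 219173 UMIs in Lats1/2 CKO E14.5, 115262 in control E14.5, 474189 in Lats1/2 CKO E13.5 and 153967 in control E13.5, so the E13.5 values rest on more counts per cell. The single deepest macrophage supplied 15.7% of the macrophage UMIs in Lats1/2 CKO E14.5 and 7.83% in control E14.5, 9.18% in Lats1/2 CKO E13.5 and 6.89% in control E13.5. Libraries shared 14 barcodes in the table and 9 among the cells that passed. Of the 452 macrophages, 1 shared its barcode with a cell of another library, no barcode was shared between macrophages, and 3 pairs of macrophages within a library had the same first 11 bases.

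Genes that the rule did not use matched the label. Of 19 other macrophage genes on a fixed identity list, 19 were at least 2-fold higher in macrophages than in the other 10992 cells under the same filters, in each of the 4 libraries, against 10.2% of 7445 genes with at least 20 UMIs. Because the cells were picked by their transcripts, this is a description and not a test. PU.1 (Spi1), the transcription factor needed for the myeloid lineage, stood at 301 and 304 CPM (UMIs scaled to a common library total) in Lats1/2 CKO at E14.5 and E13.5, and at 312 CPM in control at both stages. The other cells held at most 1.35 CPM of it. Cx3cr1, the fractalkine receptor, stood at 871 CPM in Lats1/2 CKO E14.5, 677 in control E14.5, 633 in Lats1/2 CKO E13.5 and 883 in control E13.5. Csf1r, itself a rule gene, held 561 and 685 CPM in Lats1/2 CKO and control at E14.5, and 647 and 838 CPM at E13.5. The highest levels relative to other cells outside the rule genes belonged to Trem2, Mpeg1, Ms4a6c, F13a1 and Fcrls, each with a log2 ratio of at least 8.05 in every library. Trem2 is a lipid-sensing receptor, and Mpeg1 encodes a pore-forming protein of phagocytes.

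Cells close to the threshold differed between libraries in macrophage genes. The 34 macrophages with exactly 3 rule genes held 2168 CPM of the identity list, and the 49 cells with exactly 2 held 795 CPM and stayed outside. By library, those with exactly 3 held 7590 CPM in Lats1/2 CKO E14.5 (13 cells), 3780 in control E14.5 (10 cells), 1027 in Lats1/2 CKO E13.5 (8 cells) and 1669 in control E13.5 (3 cells). In the 135 macrophages with 4 to 6 rule genes the list stood at 7529 CPM, and in the 283 with 7 to 10 at 7701 CPM. In Lats1/2 CKO E14.5 these 2 bands stood at 6591 and 5663 CPM, below the cells with exactly 3, while in the other 3 libraries they stood above them. Among the cells with at least 3 rule genes, 47 were left out by the cardiomyocyte limit, 16 in Lats1/2 CKO E14.5, 12 in control E14.5, 17 in Lats1/2 CKO E13.5 and 2 in control E13.5.

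Other cells' transcripts were present in the macrophages, unequally between libraries. The 12 cardiomyocyte genes summed to 3249 CPM in Lats1/2 CKO E14.5 macrophages, 3913 in control E14.5, 1413 in Lats1/2 CKO E13.5 and 455 in control E13.5. In the other cells the same genes held 3900 and 4123 CPM in Lats1/2 CKO and control at E14.5, and 1982 and 1179 CPM at E13.5. Haemoglobin and other erythroid genes stood at 4841 and 15721 CPM in Lats1/2 CKO and control macrophages at E14.5, and at 3788 and 403 CPM at E13.5. The control E13.5 macrophages thus had the lowest level of both lists, and the order of the libraries in cardiomyocyte genes was the same in macrophages and in other cells. At least 3 genes of a cardiomyocyte, endothelial, mesenchymal, epicardial, mural or megakaryocyte list were found in 51.5% of Lats1/2 CKO E14.5 macrophages, 51.0% of control E14.5, 49.7% of Lats1/2 CKO E13.5 and 14.9% of control E13.5. These are called mixed cells below. Without the cardiomyocyte list, and with neutrophil genes added, the number was 38 of 452 macrophages. No doublet caller was run, and results were repeated without either set of cells.

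Lyve1, F13a1 and Mrc1 carry the main contrasts below, while C1qb marks macrophages of all 4 libraries. Lyve1 (chr7:110850607-110863239, minus strand, build GRCm38), F13a1 (chr13:36867178-37050244, minus strand), Mrc1 (chr2:14229392-14332057, plus strand) and C1qb (chr4:136880129-136886187, minus strand) are placed here by the gene annotation, and promoters are shown for 3 of them. The 250 bases before the RefSeq start are given 5′ to 3′ on the gene's strand, as given by RefSeq for GRCm38.p6, because Mrc1 and F13a1 were high in the same cells as Lyve1 and C1qb differed less between those cells. Capitals mark the letters GAGGAA, or TTCCTC for the other strand, which form the core that PU.1 is known to bind.
C1qb: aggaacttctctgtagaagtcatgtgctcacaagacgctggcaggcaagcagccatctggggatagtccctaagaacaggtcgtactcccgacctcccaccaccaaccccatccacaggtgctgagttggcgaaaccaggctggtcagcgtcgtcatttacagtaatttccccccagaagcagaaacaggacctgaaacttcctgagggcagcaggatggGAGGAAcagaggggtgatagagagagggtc
F13a1: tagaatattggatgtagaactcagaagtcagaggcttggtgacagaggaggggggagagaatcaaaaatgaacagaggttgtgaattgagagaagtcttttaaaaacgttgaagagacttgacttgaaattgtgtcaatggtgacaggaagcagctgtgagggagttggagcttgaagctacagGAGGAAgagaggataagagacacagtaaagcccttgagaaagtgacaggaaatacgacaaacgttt
Mrc1: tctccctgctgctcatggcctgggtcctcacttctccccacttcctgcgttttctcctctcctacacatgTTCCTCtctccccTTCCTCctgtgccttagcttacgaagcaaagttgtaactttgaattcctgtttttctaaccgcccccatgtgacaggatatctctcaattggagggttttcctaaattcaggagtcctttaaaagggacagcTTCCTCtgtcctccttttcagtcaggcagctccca
These windows are chr4:136886201-136886450, chr13:37050245-37050494 and chr2:14229164-14229413. The C1qb and F13a1 windows held 1 match each and the Mrc1 window held 3. The same letters occur in 7639 of 32851 promoter windows of this length (23.3%), so a match describes the letters and is not evidence of binding. TGACTCA or TGAGTCA, the letters bound by AP-1 factors, had no match in the 3 windows and occurs in 4.46% of all windows.

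**Figure D1:**
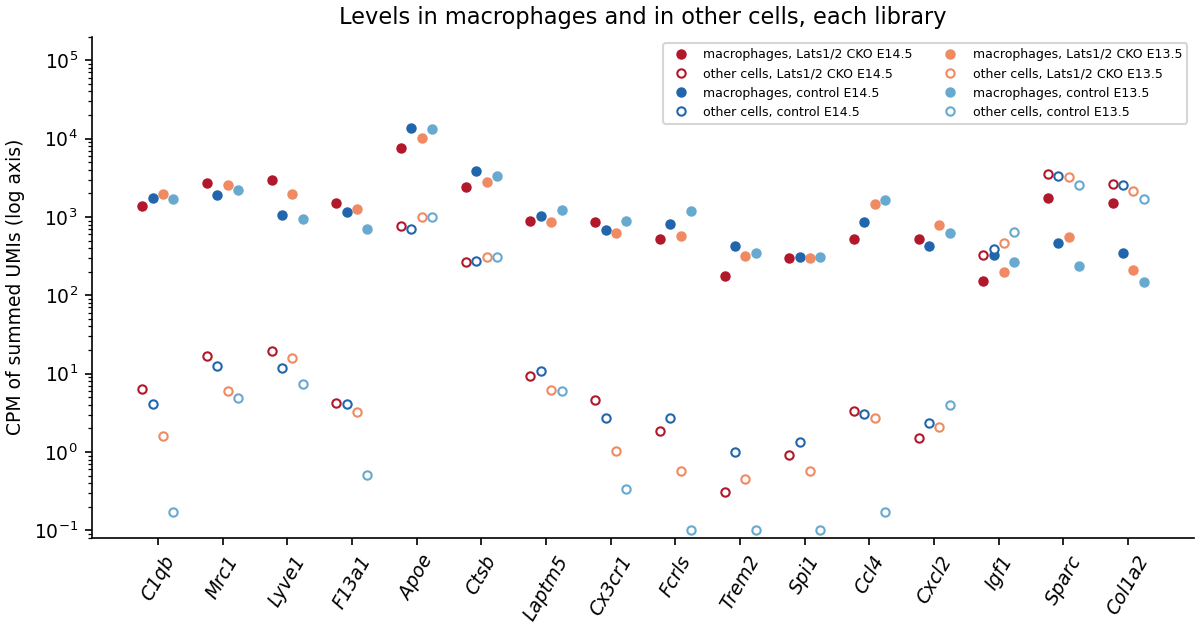
Levels of 16 genes in macrophages (filled circles) and in the other cells under the same filters (open circles) of each library, in CPM of summed UMIs on a log axis, with values under 0.1 CPM drawn at 0.1. C1qb, Spi1 and Trem2 stood far above the other cells in every library, while Igf1 and the matrix genes Sparc and Col1a2 were lower in macrophages.

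The targeted genes gave little to read in these cells. Lats1 and Lats2 encode the Hippo kinases that restrain YAP and TAZ. Lats2 had 6 and 0 UMIs in Lats1/2 CKO and control macrophages at E14.5 and 10 and 0 UMIs at E13.5. Lats1 had 7 and 4 UMIs at E14.5 and 16 and 1 UMIs at E13.5 in the same groups. A tag near the transcript's end may lie outside the deleted part, whose position was not given, so these counts do not check the genotype. Yap1 held 3 and 1 UMIs at E14.5 and 3 and 0 UMIs at E13.5 in Lats1/2 CKO and control macrophages. The recombination reporter Egfp stood at 183 and 34.7 CPM in Lats1/2 CKO and control macrophages at E14.5, and at 33.7 and 13 CPM at E13.5. In the other cells Egfp stood at 124 and 23.6 CPM in Lats1/2 CKO and control at E14.5, and at 102 and 23.9 CPM at E13.5. With all macrophages kept, its order between genotypes was thus the same in both kinds of cell. In macrophages Egfp had log2 ratios of 2.24 at E14.5 and 1.10 at E13.5, on 62 UMIs. Tdtomato had -0.64 and 1.48, on 32 UMIs, so the 2 measured reporter genes had opposite signs at E14.5. Their medians were 0.80 at E14.5 and 1.29 at E13.5. Without the cells holding genes of other types than cardiomyocytes, the reporter medians were -0.11 and 1.45. With the rule applied after thinning to 500 UMIs they were -0.17 and 1.63. The E14.5 reporter median thus changed sign with the cells kept. It joins 2 genes of opposite sign with all macrophages kept, so it describes neither of them.

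Macrophages made up a larger share of the Lats1/2 CKO libraries than of the control libraries at both stages. They were 134 of 5597 cells (2.39%, 95% exact interval 2.01 to 2.83) in Lats1/2 CKO E14.5 and 98 of 5505 (1.78%, 1.45 to 2.17) in control E14.5, a ratio of 1.34 (1.03 to 1.76). At E13.5 they were 153 of 5915 cells (2.59%, 2.20 to 3.02) in Lats1/2 CKO and 67 of 4478 (1.5%, 1.16 to 1.90) in control, a ratio of 1.73 (1.29 to 2.34). Both ratios' intervals lie above 1. They cover counting error only, and 1 library per group gives no test between embryos. More macrophages and fewer other cells cannot be told apart in a share. Without mixed cells both intervals held 1, with ratios of 1.33 (0.903 to 1.98) at E14.5 and 1.02 (0.717 to 1.47) at E13.5, where mixed cells were 49.7% of Lats1/2 CKO and 14.9% of control macrophages. When cells were left out by genes of other types but not by cardiomyocyte genes, a setting chosen after seeing the data, the ratio was 1.38 at E14.5 and 1.62 at E13.5.

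**Figure D2:**
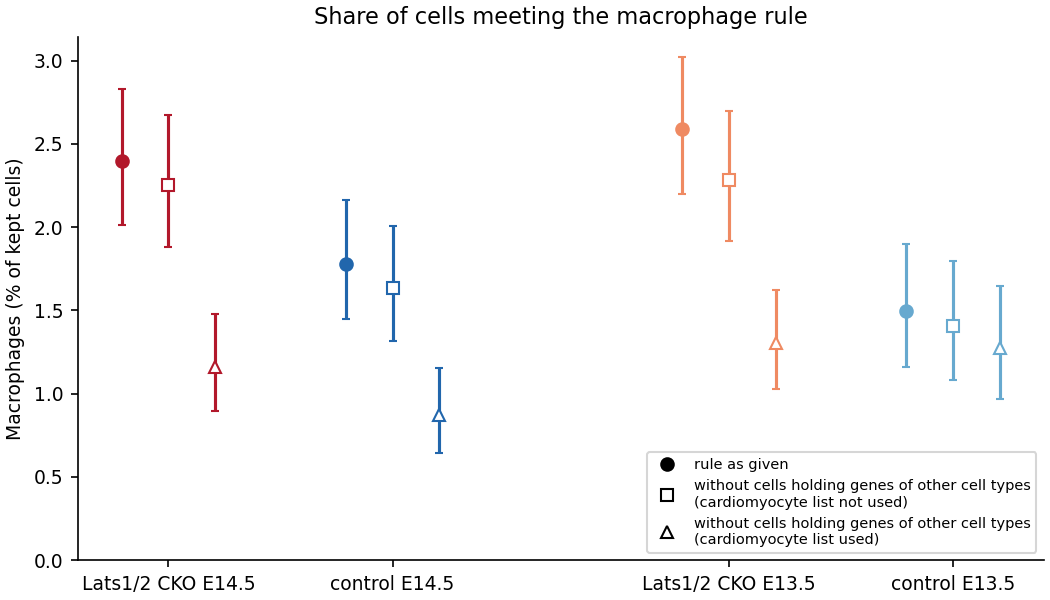
Macrophages as a percentage of the cells that passed the UMI and mitochondrial limits, in each library, with exact 95% counting intervals. Filled circles follow the rule (2.39% against 1.78% at E14.5 and 2.59% against 1.5% at E13.5, Lats1/2 CKO first), squares and triangles leave out cells that hold genes of other cell types, and the E13.5 triangles lie close together.

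Lyve1 was higher in Lats1/2 CKO than in control macrophages at both stages, by a margin that depended on the mixed cells at E14.5. It stood at 2947 CPM in Lats1/2 CKO and 1058 CPM in control macrophages at E14.5, and at 1982 CPM in Lats1/2 CKO and 942 CPM in control at E13.5. Both Lats1/2 CKO libraries were thus above both control libraries. The log2 ratio was 1.47 (95% counting interval 1.2 to 1.77) at E14.5 and 1.07 (0.82 to 1.34) at E13.5. Without mixed cells it was 0.77 at E14.5 and 1.24 at E13.5. The quasi-likelihood test of edgeR, fitted to the 4 libraries with a term for each factor, which leaves 1 residual degree of freedom, gave 1.26 ± 0.23 (SE) and an adjusted p of 0.619. Across 13 processing settings the fitted value ran between 0.98 and 1.40 and the adjusted p between 0.00156 and 0.937. It passed 0.05 without a low-count filter, with at least 5 rule genes (adjusted p = 0.0395) and without mixed cells (adjusted p = 0.0377).

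The share of cells that held the transcript differed most at E14.5. After each cell was thinned to 500 UMIs, so that depth was equal, 77 of 134 Lats1/2 CKO macrophages (57.5%) and 26 of 98 control macrophages (26.5%) held a Lyve1 UMI at E14.5. At E13.5 the numbers were 57 of 153 Lats1/2 CKO macrophages (37.3%) and 19 of 67 control macrophages (28.4%), and here the exact 95% intervals, 29.6 to 45.4% and 18.0 to 40.7%, overlap. Unthinned, the shares were 67.9% and 28.6% in Lats1/2 CKO and control at E14.5, and 54.2% and 31.3% at E13.5. Free RNA of Lyve1 itself was low, judged by the cells other than macrophages. A Lyve1 UMI was held by 1.11% of other cells in Lats1/2 CKO and 0.612% in control at E14.5, and by 0.609% and 0.182% at E13.5. No cardiomyocyte-rich cell held one. Other cells held 19.2 and 11.8 CPM of Lyve1 in Lats1/2 CKO and control at E14.5 and 16.0 and 7.33 CPM at E13.5, so their small Lyve1 level was also higher in Lats1/2 CKO. The cell with most Lyve1 UMIs supplied 5.57% of them in Lats1/2 CKO E14.5, 13.1% in control E14.5, 5.74% in Lats1/2 CKO E13.5 and 17.2% in control E13.5, so no single cell held most of them.

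F13a1 stood at 1519 and 1145 CPM in Lats1/2 CKO and control macrophages at E14.5 and at 1276 and 695 CPM at E13.5, with log2 ratios of 0.40 (0.11 to 0.71) and 0.87 (0.58 to 1.19). Mrc1 stood at 2747 and 1909 CPM in Lats1/2 CKO and control at E14.5 and at 2545 and 2228 CPM at E13.5, with log2 ratios of 0.52 and 0.19. After thinning, 72.4% of Lats1/2 CKO and 45.9% of control macrophages held an Mrc1 UMI at E14.5, and 62.1% and 56.7% at E13.5, against at most 0.854% of other cells. Fcna, a ficolin of innate immunity, stood at 164 and 60.7 CPM at E14.5 and 116 and 64.9 CPM at E13.5 in Lats1/2 CKO and control, but rests on 7 and 10 control UMIs. Mrc1 is a rule gene, so its level and shares are a description and no support for the others. Without mixed cells the log2 ratios at E14.5 and E13.5 were 0.69 and 1.2 for F13a1, 0.63 and 0.63 for Mrc1, and 2.85 and 0.95 for Fcna, which at E14.5 was then above Lyve1. Of 8 measured resident-type genes, 4 were higher in Lats1/2 CKO at both stages and 1 was lower, against 25% higher and 27.2% lower among all 7445 measured genes. Stab1, a scavenger receptor, differed little at E14.5, at 1045 CPM in Lats1/2 CKO and 1058 CPM in control, and stood at 1107 and 799 CPM at E13.5. Igf1, a growth factor, was at 151 and 329.7 CPM in Lats1/2 CKO and control at E14.5 and at 196 and 266 CPM at E13.5, and was lower in macrophages than in other cells. None of the resident-type genes passed the edgeR test for genotype, which called 0% of all 4096 genes tested.

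Apoe, Cst3 and Ctsb were lower in Lats1/2 CKO macrophages at both stages. Apoe, which encodes the lipid carrier apolipoprotein E, stood at 7669.7 CPM in Lats1/2 CKO and 13560.4 CPM in control macrophages at E14.5, and at 10066 CPM in Lats1/2 CKO and 13347 CPM in control at E13.5. Its log2 ratio was -0.82 at E14.5 and -0.41 at E13.5, and the edgeR value was -0.63 ± 0.17 (SE) with an adjusted p of 0.804. Both Lats1/2 CKO libraries were below both control libraries. Without mixed cells the Apoe log2 ratio was -0.32 at E14.5 and -0.47 at E13.5, so the E14.5 gap was smaller. Cst3, which encodes the protease inhibitor cystatin C, stood at 1401 and 2559 CPM in Lats1/2 CKO and control at E14.5, and at 2319.8 and 3423 CPM at E13.5. Ctsb, which encodes the lysosomal protease cathepsin B, stood at 2446 and 3843 CPM at E14.5 and at 2773 and 3312 CPM at E13.5 in the same groups. Of 21 lysosome and protease genes, 10 were lower in Lats1/2 CKO at both stages and 1 was higher. Among all 7445 measured genes, 27.2% were lower and 25% higher at both stages. The median log2 ratio of the 21 genes was -0.42 at E14.5 and -0.09 at E13.5. Of 12 lipid genes, 6 were lower at both stages and 0 were higher, with medians of -0.57 and -0.06. Lipoprotein lipase (Lpl) was among the 6, with log2 ratios of -1.28 at E14.5 and -0.75 at E13.5. Without mixed cells Cst3 had log2 ratios of -0.67 at E14.5 and -0.59 at E13.5. Of 20 lysosome and protease genes measured then, 10 were lower at both stages and 1 was higher, with medians of -0.28 and -0.22. Of 9 lipid genes, 5 were lower and 0 were higher, with medians of -0.32 and -0.47. Among all 4038 genes measured without mixed cells, 24.1% were lower and 27.5% higher at both stages.

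General macrophage genes also leaned lower in Lats1/2 CKO. Of the 19 identity genes, 13 were lower at both stages and 2 were higher, beside 27.2% lower and 25% higher among all measured genes. The median log2 ratio of the identity genes was -0.61 at E14.5 and -0.42 at E13.5, beside -0.03 and -0.01 for all measured genes. Ptprc, the pan-leukocyte phosphatase CD45, stood at 173 and 286 CPM in Lats1/2 CKO and control at E14.5, and at 181 and 416 CPM at E13.5. Mpeg1 stood at 159.7 and 442 CPM at E14.5 and at 228 and 377 CPM at E13.5 in the same groups. Cybb, the catalytic subunit of the phagocyte NADPH oxidase, had log2 ratios of -1.43 and -1.12 at E14.5 and E13.5, and Ly86, the partner of the LPS-receptor relative RP105, had -1.21 and -0.91, or -0.46 and -0.98 without mixed cells. Spi1, at log2 ratios of -0.06 and -0.05, differed by less than its counting interval, as did Coro1a and Cyth4. The identity median moved with the mixed cells, because it was -0.16 at E14.5 and -0.14 at E13.5 without them. Of the 19 genes, 9 were then lower and 3 higher at both stages. Without mixed cells 24.1% of all 4038 measured genes were lower and 27.5% higher. With all macrophages kept, 9 of 18 Fc receptor and adaptor genes (50%) were lower at both stages and 3 (16.7%) were higher. The shares of all measured genes were then 27.2% and 25%. Fcgr3 stood at 411 and 625 CPM in Lats1/2 CKO and control at E14.5 and at 409 and 630.0 CPM at E13.5. Without mixed cells the Fc list had no such lean, with 4 of 17 genes lower, 5 higher and medians of 0.02 at both stages. These were 23.5% and 29.4%, beside 24.1% and 27.5% of all genes measured in that setting. B2m, the light chain of class I molecules, had log2 ratios of -0.62 and -0.54.

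**Figure D3:**
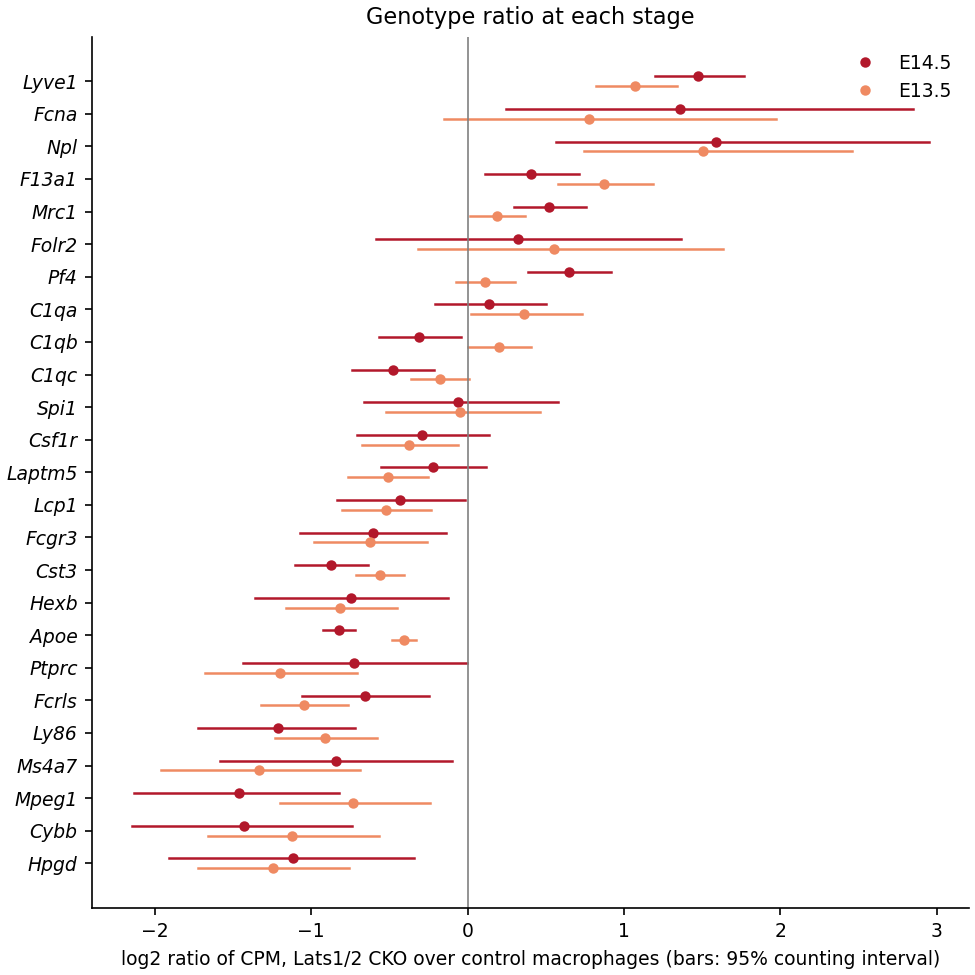
Log2 ratio of CPM, Lats1/2 CKO over control macrophages, for 25 genes at E14.5 (dark) and E13.5 (light), with 95% counting intervals. Lyve1 lies right of 0 at both stages (1.47 and 1.07), Spi1 lies at 0, and Apoe, Cybb and Hpgd lie left of 0.

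The rule genes themselves split in direction. C1qa, C1qb and C1qc encode the 3 chains of C1q, the recognition part of the classical complement pathway, and they did not move together. C1qa stood at 958 and 868 CPM in Lats1/2 CKO and control at E14.5 and at 713 and 552 CPM at E13.5, while C1qc stood at 1309 and 1822 CPM at E14.5 and at 1849 and 2091 CPM at E13.5 in the same groups. Tyrobp, the ITAM adaptor DAP12, was lower in Lats1/2 CKO at both stages, at 871 against 1275 CPM and at 1143 against 1474 CPM. Lyz2, which encodes lysozyme, stood at 698 and 2438 CPM in Lats1/2 CKO and control at E14.5 and at 888 and 909 CPM at E13.5. Control E14.5 was thus the 1 high library, and it also had the highest share of cells with Ccr2. Pf4, a platelet chemokine also made by macrophages, stood at 2149 and 1371 CPM at E14.5 and at 2128 and 1968 CPM at E13.5 in Lats1/2 CKO and control. Since cells were picked by these genes, the ratios are given as a description.

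Chemokine genes showed no common lean between genotypes, with 4 of 13 (30.8%) higher and 4 (30.8%) lower in Lats1/2 CKO at both stages. These shares lie near those of all measured genes, 25% higher and 27.2% lower. Ccl3 stood at 502 and 781 CPM in Lats1/2 CKO and control at E14.5 and at 732 and 974 CPM at E13.5. Cxcl2 leaned the other way at both stages. Among 19 transcription factor genes, 10 (52.6%) were lower and 2 (10.5%) were higher in Lats1/2 CKO at both stages. Maf, a factor of resident macrophages, was not one of them. It stood at 1811 and 1388 CPM in Lats1/2 CKO and control at E14.5 and at 924 and 1533 CPM at E13.5, so its order between genotypes differed by stage. None of the chemokine or transcription factor genes passed the edgeR test for genotype.

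No gene passed the edgeR test for genotype at an adjusted p of 0.05. Of 4096 genes tested, 0 rose and 0 fell (0% in each direction), 217 (5.30%) had an unadjusted p under 0.05, and DESeq2 called 0. In simulated data of the same design, 91.25% of 4-fold changes and 23% of 2-fold changes were recovered at a dispersion of 0.02, and 52.2% and 2.37% at 0.1, beside a fitted common dispersion of 0.0521. Differences near 2-fold were therefore mostly not called in the simulated data. The simulated counts had no stage difference and the same dispersion for every gene, unlike these libraries, so the rates may differ here. By size alone, 33 genes (0.806%) were at least 2-fold higher and 34 (0.83%) at least 2-fold lower in Lats1/2 CKO at both stages. Several of the largest were processed pseudogenes of ribosomal proteins such as Rps13-ps1 and Gm8420, which share sequence with parent genes, so their counts are uncertain, and they differed the same way in the other cells. Rps13-ps1, for example, had log2 ratios of 7.21 and 4.23 in macrophages at E14.5 and E13.5, and of 7.0 and 6.92 in the other cells.

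Npl and Hpgd stood out among the metabolic genes of that size rule. Npl encodes the lyase that breaks down sialic acid. It stood at 219 and 69.4 CPM in Lats1/2 CKO and control macrophages at E14.5 and at 266 and 90.9 CPM at E13.5, with an edgeR log2 value of 1.58 ± 0.32 (SE) and an adjusted p of 0.643. Other cells held 8.85 and 6.06 CPM of Npl in Lats1/2 CKO and control at E14.5 and 9.04 and 10.6 CPM at E13.5, so the gap was not shared by them at E13.5. Hpgd, which encodes the enzyme that inactivates prostaglandins, stood at 128 and 278 CPM in Lats1/2 CKO and control at E14.5 and 181 and 429 CPM at E13.5. In both genes the 2 Lats1/2 CKO libraries lay on one side of the 2 control libraries, and neither gene passed the test.

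Glycolytic genes leaned higher in Lats1/2 CKO macrophages. Of 16 measured genes, 9 were higher at both stages and 1 was lower, beside 25% higher and 27.2% lower among all measured genes. The 16 genes had median log2 ratios of 0.49 at E14.5 and 0.47 at E13.5. Eno1, which encodes enolase, stood at 392 and 304 CPM in Lats1/2 CKO and control at E14.5 and at 337 and 169 CPM at E13.5, and Gpi1, glucose-6-phosphate isomerase, at 292 and 199.5 CPM and at 295 and 182 CPM. Without mixed cells 8 of 12 measured genes were higher at both stages and 0 were lower. In that setting 27.5% of all 4038 measured genes were higher and 24.1% lower. The other cells held 284 and 193 CPM of Eno1 in Lats1/2 CKO and control at E14.5 and 198 and 85.6 CPM at E13.5, so Eno1 was higher in Lats1/2 CKO there too. The whole glycolysis list summed to 3019 and 2520 CPM in other cells of Lats1/2 CKO and control at E14.5, and 2718 and 2082 CPM at E13.5. In macrophages the list summed to 4544 and 3574 CPM at E14.5, and 4414 and 3657 CPM at E13.5. The higher level in Lats1/2 CKO was thus not particular to macrophages.

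Tested against the other cells of the same libraries, the genotype difference lay above that of the other cells for 3 genes (0.0732%) and below it for 3 (0.0732%). Igfbp3, Tm4sf1 and Sparc were on the higher side, and Mpo, Mt1 and Apobec3 on the lower side. Igfbp3, Sparc and Mpo rest largely on single cells. A single cell held 87.5% of the Igfbp3 UMIs in Lats1/2 CKO E14.5 macrophages and another held 97.5% in Lats1/2 CKO E13.5, and the Mpo UMIs of each library that held any came from 1 cell. One Lats1/2 CKO E14.5 cell held 87.2% of that library's Sparc UMIs, and Sparc was at -0.55 instead of 1.33 without the cells holding other types' genes. Mt1, a metallothionein, did not differ in macrophages, at 666 and 694 CPM in Lats1/2 CKO and control at E14.5 and 827 and 773 CPM at E13.5. In the other cells it was higher in Lats1/2 CKO, at 140 against 62.3 CPM at E14.5 and 64.8 against 21.7 CPM at E13.5. DESeq2 called 0 of these 6 genes.

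Within each library, macrophages with a Lyve1 UMI after thinning differed from those without in a set of genes that recurred in all 4 libraries. Both classes and the genes were chosen after their values were seen, so no test is given. Ednrb, the endothelin B receptor, had log2 ratios of 1.75 and 2.17 in Lats1/2 CKO and control at E14.5 and 1.62 and 1.85 at E13.5. F13a1 had 1.81 and 1.29 at E14.5 and 1.77 and 2.19 at E13.5, and Mrc1 had 1.38 and 1.59 at E14.5 and 1.27 and 1.02 at E13.5. Ccl7, a monocyte-attracting chemokine, and Ltc4s, which makes leukotriene C4, were also higher in the Lyve1 class of every library. C1qb, by contrast, ran between 0.19 and 0.60. The promoter letters of F13a1, Mrc1 and C1qb were set out above.

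The genes higher in cells without Lyve1 were of several kinds. Beside Plac8 and Lgals3 they included the matrix genes Col1a1 and Col4a1, Id3, Mdk and Ccnd2. In cells without Lyve1, Col1a1 stood at 2626 and 172 CPM in Lats1/2 CKO and control at E14.5, and at 166 and 142 CPM at E13.5. The mesenchymal list, which holds Col1a1, summed to 4485 CPM in Lats1/2 CKO E14.5 macrophages. It fell to 291 CPM without the 7 cells that held at least 3 of its genes. Whether the matrix genes belong to macrophages without Lyve1 was not tested. Ms4a6c, on the monocyte list like Plac8, went the other way in every library, with log2 ratios of 0.96 and 0.75 in Lats1/2 CKO and control at E14.5 and 0.42 and 0.63 at E13.5. Plac8, which marks immature myeloid cells among others, had 0 CPM in the Lyve1 class of all 4 libraries, and without Lyve1 it stood at 37.6 CPM in Lats1/2 CKO E14.5, 539 in control E14.5, 296 in Lats1/2 CKO E13.5 and 204 in control E13.5. Lgals3, which encodes galectin-3, was likewise higher in cells without Lyve1 in every library. Plac8 UMIs were concentrated, with 75% in 1 cell in Lats1/2 CKO E14.5 and 72.3% in control E14.5. Cells with a Lyve1 UMI had median depths of 1112 UMIs in Lats1/2 CKO E14.5, 857 in control E14.5, 2196 in Lats1/2 CKO E13.5 and 1713 in control E13.5, and cells without one had 996 UMIs in Lats1/2 CKO E14.5, 839.5 in control E14.5, 2306 in Lats1/2 CKO E13.5 and 1737 in control E13.5. Median depth therefore differed little between the classes. Summed UMIs were less even in Lats1/2 CKO E14.5, at 112930 in the 77 cells with Lyve1 and 106243 in the 57 without.

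**Figure D4:**
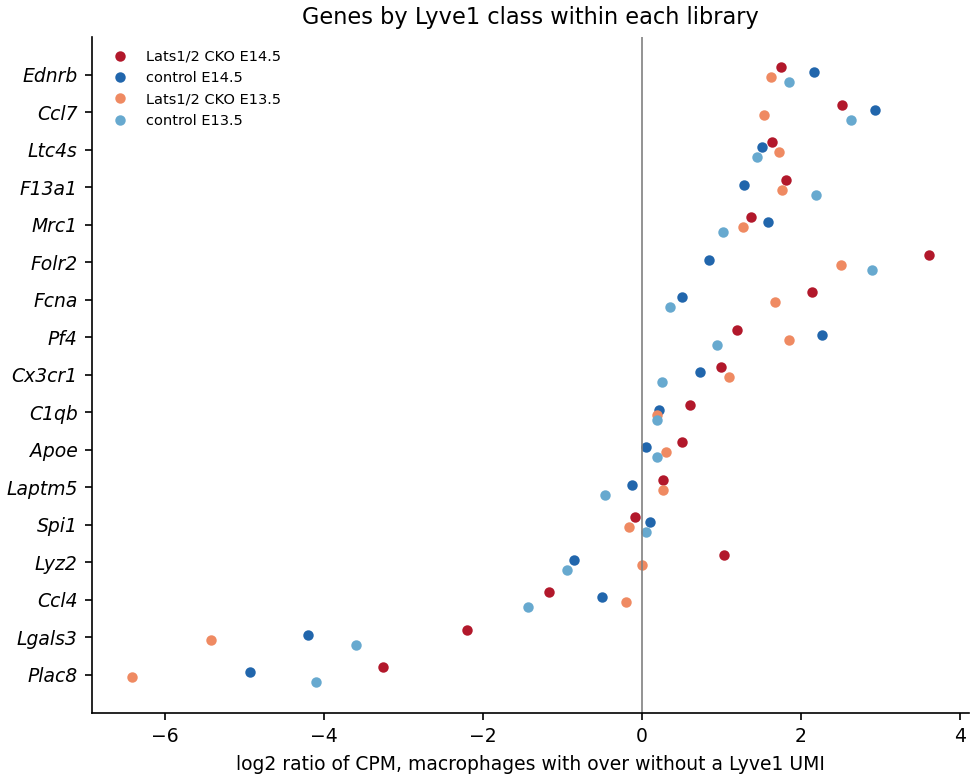
Log2 ratio of CPM between macrophages with and without a Lyve1 UMI in 500 thinned UMIs, for each of the 4 libraries (colours) and for genes on the vertical axis. Ednrb, F13a1 and Mrc1 lie right of 0 in each library, and Plac8 and Lgals3 lie left of 0.

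Apoe was lower in Lats1/2 CKO inside both classes. With Lyve1 it stood at 8944 CPM in Lats1/2 CKO and 13929 CPM in control at E14.5, and at 11598 and 14662 CPM at E13.5. Without Lyve1 it stood at 6316 and 13442 CPM in Lats1/2 CKO and control at E14.5, and at 9404 and 12867 CPM at E13.5. Mrc1 differed less between genotypes inside the Lyve1 class, at 3914 and 3857 CPM in Lats1/2 CKO and control at E14.5 and 4306 and 3544 CPM at E13.5, than its total did at E14.5. Cybb had log2 ratios of -1.48 and -1.18 at E14.5 and E13.5 in the cells without Lyve1, and of 0.42 and -0.64 in the cells with it, so in that class its order between genotypes differed by stage. The class without Lyve1 also holds cells that lost their Lyve1 UMIs only by thinning, and it was not alike between genotypes. Unthinned, it held Lyve1 at 452 and 34.4 CPM in Lats1/2 CKO and control at E14.5, and at 408 and 35.5 CPM at E13.5. Genotype ratios inside a class are therefore a description only.

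Class II genes and several monocyte-list genes were scarce, while class I genes and Ms4a6c were not. The class I list summed to 2231 and 3227 CPM in Lats1/2 CKO and control at E14.5 and to 3184 and 4248 CPM at E13.5. Ms4a6c was found, after thinning, in 22.4% and 28.6% of Lats1/2 CKO and control macrophages at E14.5 and in 19.6% and 23.9% at E13.5, against at most 0.131% of other cells. Ccr2, the receptor of newly recruited monocytes, was found in 0.746% of Lats1/2 CKO and 9.18% of control macrophages at E14.5 after thinning, and in 1.96% and 0% at E13.5. Between 0.0364% and 0.0874% of other cells held it, and 0 of 67 cells, the value in control E13.5, allows a share of up to 4.48% (3 counts). The share in control E14.5 was thus the highest of the 4 libraries. Plac8 stood at 18.3 and 408 CPM in Lats1/2 CKO and control at E14.5 and at 207 and 149 CPM at E13.5, with most UMIs of each library in 1 cell. After thinning it was found in 0% and 6.12% of Lats1/2 CKO and control macrophages at E14.5, where 0 of 134 cells allows up to 2.24% (3 counts), and in 4.58% and 2.99% at E13.5. Of 7 class II genes, 4 had no UMI in any macrophage, H2-Aa and H2-Eb1 among them. Timd4, a phosphatidylserine receptor of fetal-derived resident cells, had 5 and 4 UMIs in Lats1/2 CKO and control at E14.5 and 2 and 4 UMIs at E13.5. Folr2 was found, after thinning, in 6.72% and 4.08% of Lats1/2 CKO and control macrophages at E14.5 and in 9.80% and 2.99% at E13.5.

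Between stages, 40 genes (0.977%) rose at E14.5 over E13.5 in macrophages in the edgeR fit and 0 fell (0%), with 374 genes (9.13%) at an unadjusted p under 0.05 and 40 genes called by DESeq2. Of the 40 genes, 25 encode ribosomal proteins. Rps12 stood at 1236 and 1709 CPM in Lats1/2 CKO and control at E14.5, and at 16.9 and 6.49 CPM at E13.5. This set was not particular to macrophages, since all 40 genes differed in the same direction in the other cells of both genotypes, 37 of them by at least 2-fold. In the other cells, Rps12 had log2 ratios of 5.66 in Lats1/2 CKO and 6.64 in control. The exceptions were the cardiomyocyte gene Myl7, S100a6, and Malat1 (counted jointly with Gm27694). Malat1 had log2 ratios of 1.78 in Lats1/2 CKO and 0.77 in control in the other cells. The sum of 77 ribosomal protein genes was 69251 and 64262 CPM in Lats1/2 CKO and control macrophages at E14.5, and 46123 and 37963 CPM at E13.5. Each stage is its own pair of libraries with its own gene minimum in the table (300 genes per cell at E14.5 and 500 at E13.5), so stage and library preparation cannot be told apart. Whether counting of genes with many pseudogenes differed between stages was not tested.

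**Figure D5:**
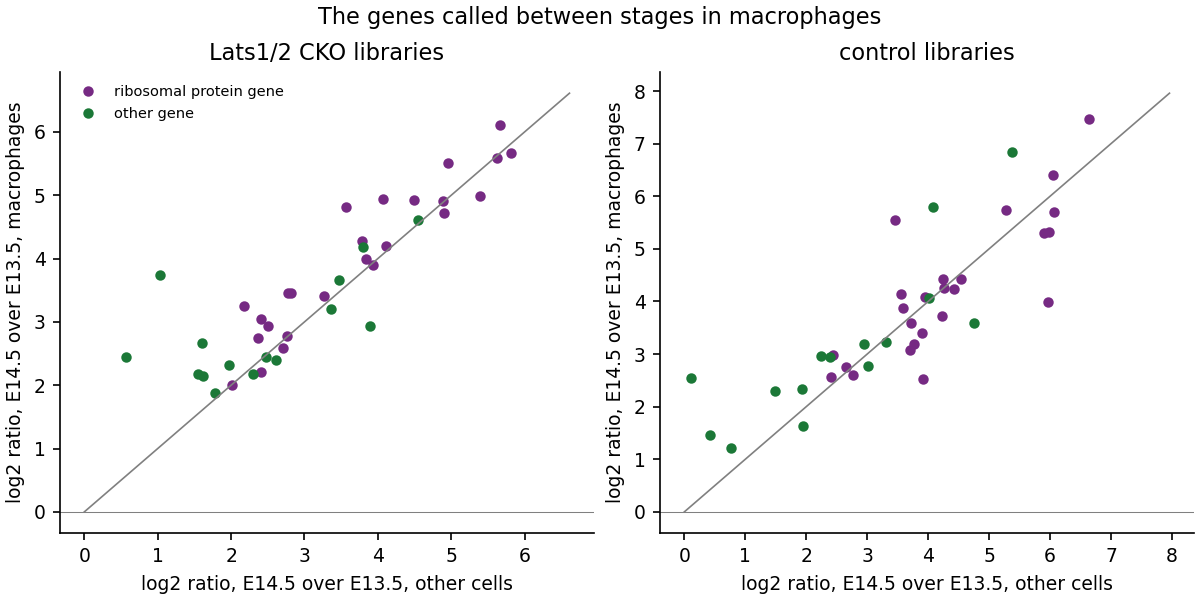
Log2 ratio of E14.5 over E13.5 in the other cells (horizontal) and in macrophages (vertical) for the 40 genes called between stages, in Lats1/2 CKO libraries (left) and control libraries (right). Purple points are ribosomal protein genes, and most genes lie near the grey line of equal ratios, with Myl7 above it.

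Relative to the other cells, the stage difference of macrophages lay above for 21 genes (0.513%) and below for 11 (0.269%). The upper side held matrix and blood genes such as Dcn, Col1a2 and Hbb-bs, which belong to the lists of other cell types. On the lower side, Ccl4 was lower at E14.5 relative to the other cells, by -2.35 ± 0.51 on the log2 scale (adjusted p = 0.0202 in edgeR). In macrophages Ccl4, a chemokine that attracts monocytes and T cells, stood at 529 and 859 CPM in Lats1/2 CKO and control at E14.5, and at 1461 and 1656 CPM at E13.5. Both E14.5 libraries were below both E13.5 libraries. The fall within macrophages was smaller than the relative value, which also takes in the level of the other cells. C1qb and Mrc1 were among the 11 as well, but they are rule genes, by which macrophages and other cells were separated, so their calls are no test. DESeq2 called 2 genes in this comparison, and 0 were called without mixed cells.

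Ier3, Cxcl2 and Hmox1 differed in level between stages without passing the test. Ier3, an early response gene, stood at 292 and 226 CPM in Lats1/2 CKO and control at E14.5 and at 521 and 643 CPM at E13.5, and Cxcl2, a neutrophil chemokine, at 529 and 425 CPM and at 793 and 617 CPM. Hmox1, the haem-degrading enzyme of macrophages that clear red cells, went the other way, at 178 and 252 CPM in Lats1/2 CKO and control at E14.5 and 84.4 and 84.4 CPM at E13.5, and erythroid transcripts in control macrophages moved with it. Their part in this was not tested. Of 10 iron and haem genes, 3 were higher and 2 lower at E14.5 in both genotypes, beside 22.6% higher and 32.8% lower among all measured genes. At least 2-fold in both genotypes, 87 genes (2.12%) were higher and 57 (1.39%) lower at E14.5.

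Many macrophages carried cell cycle transcripts. After thinning, at least 2 G2/M genes were found in 39.6% of Lats1/2 CKO and 34.7% of control macrophages at E14.5 and in 37.9% and 49.3% at E13.5. Among other cells the shares were 25.1% and 26.6% in Lats1/2 CKO and control at E14.5, and 22.4% and 24.6% at E13.5. The macrophage share was higher than that of other cells in each library, and the exact intervals of the genotypes overlapped at both stages. S-phase genes followed the same order, with 23.1% and 24.5% of Lats1/2 CKO and control macrophages at E14.5 and 30.1% and 28.4% at E13.5, against 14%, 17%, 19% and 21% of other cells in Lats1/2 CKO E14.5, control E14.5, Lats1/2 CKO E13.5 and control E13.5. Aurkb, a mitotic kinase, stood at 41.1 and 52.1 CPM in Lats1/2 CKO and control macrophages at E14.5, and at 116 and 162 CPM at E13.5. Of 20 S-phase genes, 13 were lower at E14.5 in both genotypes and 2 higher, beside 32.8% lower and 22.6% higher among all measured genes, and other cells also had lower S-phase shares at E14.5.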

How the data were processed

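The authors deposited 1 merged table of whole UMI counts, with 30268 genes in 24849 cells, and the suffix of each cell name gave stage and genotype, with 0 columns left unused. Per the submitters' processing notes, STAR and Picard were used and the genome was mm10; their versions, the gene models and the counting of multi-mapped reads were not stated there. One stage is E13.4 in the design text but e13.5 in the sample labels, which were followed.

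Members and gene lists were chosen with earlier results of these data known. The 4 cardiomyocyte genes, 10 rule genes and thresholds are those of the opening. UMIs were summed per library over the macrophages and over the other cells that passed the same filters, and scaled to a common total (CPM). Log2 ratios used a prior of 0.5 count, with 95% exact conditional intervals; shares have exact Clopper-Pearson intervals. All intervals cover counting error only.

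Genes were tested with edgeR 4.0.16 in R 4.3.3 (quasi-likelihood, TMM, filterByExpr, Benjamini-Hochberg at 0.05) on the 4 libraries with genotype and stage, leaving 1 residual degree of freedom. The same fit with other cells of each library added tested whether a difference was larger or smaller in macrophages. With 1 library per genotype and stage, p-values measure only the spread between these libraries, which may be technical. DESeq2 1.42.0 was an alternative, and Python 3.11.15 did the rest. The fit was tested on simulated data. Genes named are members of fixed lists, called genes, those of largest ratio in both stages or genotypes with at least 60 UMIs, and the 25 highest over other cells. Sex-linked transcripts are not reported. Alternatives changed the rule genes required, UMI, mitochondrial and cardiomyocyte limits, scaling, low-count filter and mixed cells.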

Additional observations from a re-analysis of the deposited data

Results flagged for a closer look

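For 22 genes the Lats1/2 CKO over control log2 ratio in macrophages had counting intervals on opposite sides of 0 at the 2 stages. Such genes were looked for only among those on the fixed lists or named by the rules above. The count is therefore not a share of all measured genes. The difference between stages was not tested, because each genotype and stage had 1 library. Values are given at E14.5 and then at E13.5. Among macrophage genes, C1qb stood at -0.31 and 0.20 and the transcription factor Maf at 0.38 and -0.73. Mcm3, a replication gene, stood at -1.07 and 0.86, and Jun, an early response gene, at -0.43 and 0.37. The cardiomyocyte genes Tnnt2 (-0.68 and 1.15), Actc1 (-0.95 and 1.46), Myl2 (-0.64 and 1.75) and Myl3 (-0.93 and 2.27) shared a pattern with the globin genes Hba-a1 (-1.95 and 3.29), Hba-a2 (-1.39 and 3.25), Hbb-bt (-1.66 and 3.72), Hbb-bs (-1.25 and 4.49), Hbb-y (-3.37 and 2.72) and Hba-x (-3.81 and 1.95). The control E13.5 macrophages held the lowest level of both of these lists. Fabp4, a lipid-binding protein of endothelium and some macrophages, stood at -2.31 and 6.96. The mesenchymal genes Col3a1 (1.96 and -0.85) and Dcn (0.76 and -1.35) and the mural gene Tagln (2.35 and -1.97) had the signs the other way round, while other genes of these lists did not, such as Lum at -0.93 and 3.66, Postn at -1.81 and -0.92 and Rgs5 at -4.10 and -1.62. The neutrophil genes S100a8 (-5.45 and 0.60), Mpo (-7.37 and 2.40), Prtn3 (-6.28 and 1.80) and Stfa1 (-6.66 and 3.20) rest on very few cells, and all Mpo UMIs of a library came from 1 cell. These ratios use a prior count, and those with 0 UMIs in a library are not bounds.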

How the results depend on the processing

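The macrophage share ratio (Lats1/2 CKO over control) over all cells that passed was above 1 in every setting run. It ran between 1.02 without mixed cells and 1.87 with a cardiomyocyte limit of 5%, both at E13.5. At E14.5 it was 1.84 with at least 1000 UMIs. Without mixed cells the counting intervals held 1 at E14.5 (0.903 to 1.98) and at E13.5 (0.717 to 1.47), so no direction was clear in that setting. Counts of called genes moved more. For genotype, against 0 genes, 41 were called without a low-count filter, 15 with at least 5 rule genes, 5 after thinning to 500 UMIs, 2 with at least 1000 UMIs, 5 with a mitochondrial limit of 10% and 21 without mixed cells. For stage, against 40, the counts were 109 without a low-count filter, 102 with at least 5 rule genes, 79 without mixed cells, and 24 without the cells holding genes of other types, a setting chosen after seeing the data. For genotype relative to other cells, against 6, they were 28 with RLE size factors, 21 without a low-count filter, 0 with DESeq2, 14 with at least 4 and 13 with at least 5 rule genes, 0 after thinning, 11 with at least 1000 UMIs, 17 with the 10% mitochondrial limit, 0 with a cardiomyocyte limit of 5%, 23 with 0.5%, and 0 without mixed cells. Only 3 of the 6 were among the 14, and 3 among the 13. Without the cells holding genes of other types 5 were called, 1 of them among the 6. For stage relative to other cells, against 32, they were 49 with RLE, 72 without a filter, 2 with DESeq2, 66 and 70 with at least 4 and 5 rule genes, 4 after thinning, 3 with the 5% limit, 53 with 0.5%, and 0 without mixed cells. In the same comparison 30 were called without the cells holding genes of other types, 12 of them among the 32. Among 84 named gene results, 768 tested alternatives kept direction and side of the threshold, 39 passed it anew, 107 no longer passed, and 5 turned: Sparc for genotype relative to other cells (-0.84 after thinning, -0.55 without cells of other types' genes), Spp1 for stage relative to other cells (-2.19 without mixed cells) and S100a6 likewise (-0.28 after thinning, -0.92 without cells of other types' genes). The cause was not tested. With 1 library left out, no residual degree of freedom remained within a stage, so only values were recomputed: 156 stayed and 52 moved. No paired analysis was possible because each genotype and stage had 1 library and the labels carry no replicate numbers.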
